A study of Mus musculus with 5 samples.

Results

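Cluster 9 is one of 6 clusters that carry the cell type label beta in a deposited annotation of single cells from mouse pancreatic islets. Its members are the cells given cluster number 9, and they numbered 660 of the 18221 annotated cells and of the 11607 cells labelled beta. The study compared islets of control mice (Atf6a fl/fl) with islets of ATF6a cKO mice (RIP-Cre;Atf6a fl/fl), so the floxed alleles were present in both genotypes and Cre only in the cKO. RIP-Cre is a recombinase under a rat insulin promoter, which acts mainly in beta cells, and no group with Cre alone is among the samples used here. The diets began at 6 weeks of age and supplied fat at 10 kcal% (normal) or at 60 kcal% (high-fat). Islets were isolated from 22-week-old mice. Each library pooled the islets of 2 mice. There was 1 library of batch 1 in each of the 4 combinations of genotype and diet, and a further library of batch 2 from cKO mice on the normal diet.

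Beta cells make and secrete insulin, alpha cells glucagon, delta cells somatostatin and PP cells pancreatic polypeptide. ATF6α is a sensor in the membrane of the endoplasmic reticulum. When unfolded proteins accumulate, it moves to the Golgi, where it is cut, and the freed fragment enters the nucleus and switches on genes for chaperones and protein degradation. A high-fat diet raises the demand for insulin and with it the folding load of beta cells. UMAP places cells with similar expression near each other on a plane, but a distance on that plane is not a distance in expression.

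The libraries held 7998 cells (control normal diet), 6667 (control high-fat diet), 40 (cKO normal diet, batch 1), 1033 (cKO normal diet, batch 2) and 2483 (cKO high-fat diet). The 40-cell library stands apart: it had 31 beta cells and no alpha, delta or PP cell. With a limit of 3 counts for a count of 0, 0 of 40 cells allows a share of up to 7.50%. That library held 1 cluster 9 cell, so positions inside the cluster could not be compared between replicates of any group. Intervals below are exact 95% binomial intervals and cover counting error only. Between libraries, 140 cell barcodes occurred more than once, 14 cluster 9 cells had a barcode that another library also held (1 of control high-fat diet, 2 of cKO normal diet batch 2 and 11 of cKO high-fat diet), and no barcode was a cluster 9 cell in both. Expression per gene was not analysed here, so Ins1 and Ins2, the mouse insulin genes, could not be checked in these cells, and "beta" is the deposited label.

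Most cluster 9 cells came from the cKO high-fat diet library. It gave 484 of the 660 cells, or 73.3% (69.8 to 76.7%). Control normal diet gave 71 cells, control high-fat diet 58, and cKO normal diet 1 in batch 1 and 46 in batch 2. The cKO libraries together held 80.5% of cluster 9 but 20.3% of all beta cells. As a share of each library's beta cells, cluster 9 made up 1.61% (1.26 to 2.03%) in control normal diet and 1.20% (0.911 to 1.55%) in control high-fat diet. It made up 3.23% (0.0816 to 16.7%) in cKO normal diet batch 1, 19.5% (14.6 to 25.1%) in batch 2 and 23.1% (21.3 to 24.99%) in cKO high-fat diet. Both larger cKO libraries thus lay above both control libraries, without overlap of the intervals, and the batch 1 cKO normal-diet interval held both control values and overlapped the interval of batch 2. Set against the cells it lies among, cluster 9 numbered 2.22 per 100 alpha, delta and PP cells in control normal diet, 4.28 in control high-fat diet, 6.52 in cKO normal diet batch 2 and 169 in cKO high-fat diet.

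The centre of the cluster lay nearer to the centres of the other hormone cell types than to those of the remaining beta clusters. Its median position was UMAP 1 1.04 and UMAP 2 3.56. The nearest cluster medians were those of the PP cells (cluster 11, 2.58 units away), both alpha clusters (cluster 2 at 2.78 and cluster 8 at 3.17) and the delta cells (cluster 4, 3.54). Every other beta cluster was farther off: cluster 3 at 5.61 units, cluster 1 at 7.30, cluster 6 at 9.0025, cluster 7 at 9.19 and cluster 5 at 10.6. The nearest cell outside the cluster was an alpha cell for 268 members, a delta cell for 168, a PP cell for 125 and another beta cell for 98. Other beta cells were nonetheless near: the median distance to the closest was 0.226 units, against 0.15996 to the closest alpha, 0.224 to the closest delta and 0.246 to the closest PP cell, and 34.4% of members had a cell of beta cluster 3 among their 30 nearest cells. The clusters and the embedding come from the same cells, so this placement describes the annotation and was given no test.

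**Figure D1:**
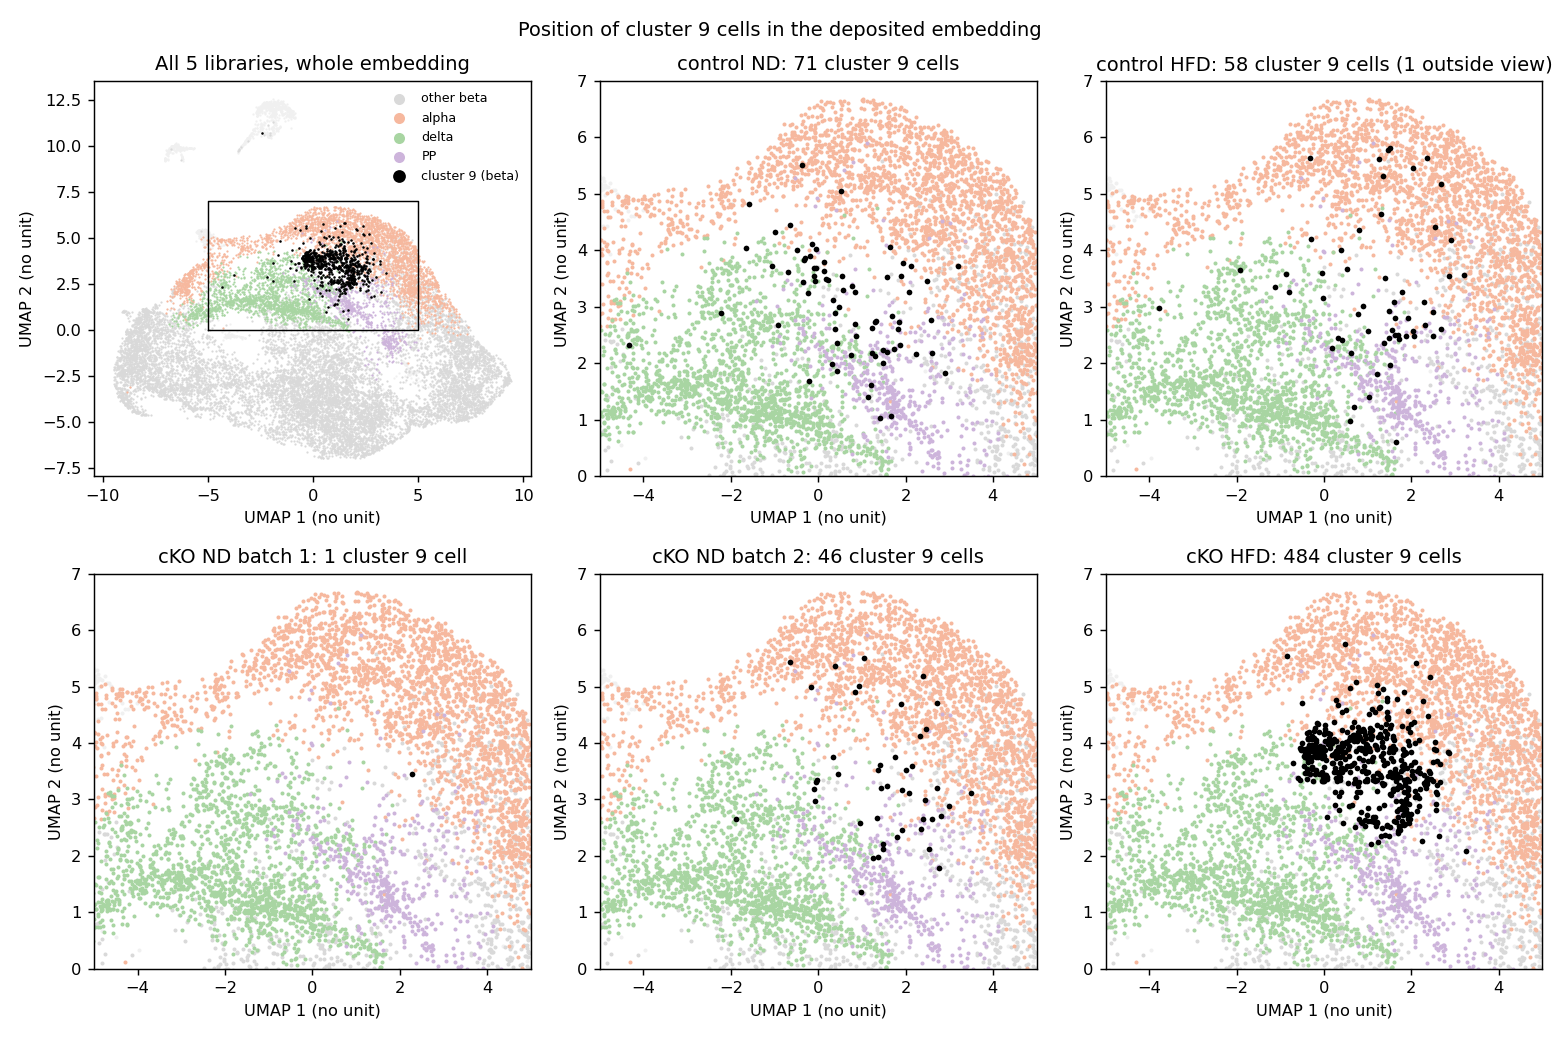
UMAP 1 against UMAP 2 (no unit) for the whole embedding (first panel, box marks the enlarged area) and, enlarged, for the cluster 9 cells of each library in black over the alpha (orange), delta (green), PP (purple) and other beta cells (grey) of all libraries. The 484 cells of cKO high-fat diet form a compact patch, and the 71, 58 and 46 cells of both control libraries and of cKO normal diet batch 2 are scattered over and beyond it.

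Beta clusters differed widely in how many other hormone cells surrounded them. For each cell the 30 nearest cells of any library were taken. At least 1 of these was an alpha, delta or PP cell for 0.558% of the cells of cluster 7, 5.69% of cluster 5, 7.84% of cluster 1, 9.80% of cluster 6, 55.1% of cluster 3 and 98.2% of cluster 9 (648 of 660). The mean share of such neighbours was 30.5% in cluster 9 and 21.2% in cluster 3, the next beta cluster in this order. By library, cluster 9 cells had a mean of 43.8% of such neighbours in control normal diet, 53.4% in control high-fat diet, 51.2% in cKO normal diet batch 2 and 23.9% in cKO high-fat diet. In the cKO high-fat diet library the order of clusters 3 and 9 was the opposite, with 29.1% around cluster 3 cells, and in cKO normal diet batch 2 cluster 3 cells stood at 50.2%.

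**Figure D2:**
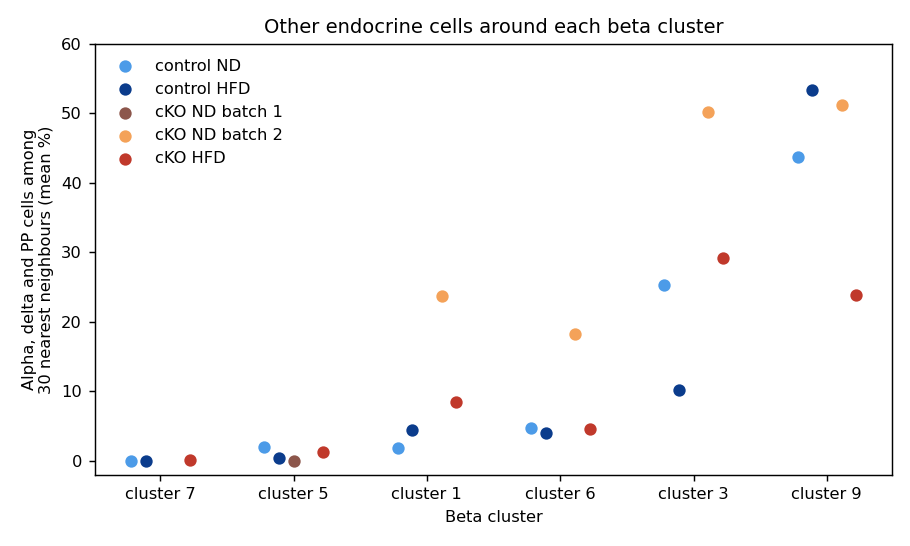
Mean percentage of alpha, delta and PP cells among the 30 nearest neighbours (vertical axis) for the cells of each beta cluster (horizontal axis), 1 point per library with at least 20 cells of that cluster. Cluster 9 points lie between 23.9 and 53.4%, with the lowest point from cKO high-fat diet.

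Inside the cluster, cKO high-fat diet cells lay closer together than the cells of the other libraries. Their median distance from the cluster's median position was 0.986 units, against 1.39 in control normal diet, 1.52 in control high-fat diet and 1.45 in cKO normal diet batch 2. Of the cKO high-fat diet cells 52.7% (48.1 to 57.2%) lay within 1 unit, compared with 28.2% (18.1 to 40.1%) in control normal diet, 19.0% (9.87 to 31.4%) in control high-fat diet and 23.9% (12.6 to 38.8%) in cKO normal diet batch 2. Beyond 2 units lay 5 of 484 cKO high-fat diet cells (1.03%, 0.336 to 2.39%), 15 of 71 control normal-diet cells (21.1%, 12.3 to 32.4%), 16 of 58 control high-fat diet cells (27.6%, 16.7 to 40.9%) and 9 of 46 cells of cKO normal diet batch 2 (19.6%, 9.36 to 33.9%). The wide spread was thus seen in both control libraries and in the larger cKO normal-diet library. Since cKO high-fat diet supplied most cells, it also set most of the centre. Measured around each library's own median, the distance was 1.29 units in control normal diet, 1.38 in control high-fat diet, 1.24 in cKO normal diet batch 2 and 0.996 in cKO high-fat diet, again the smallest.

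**Figure D3:**
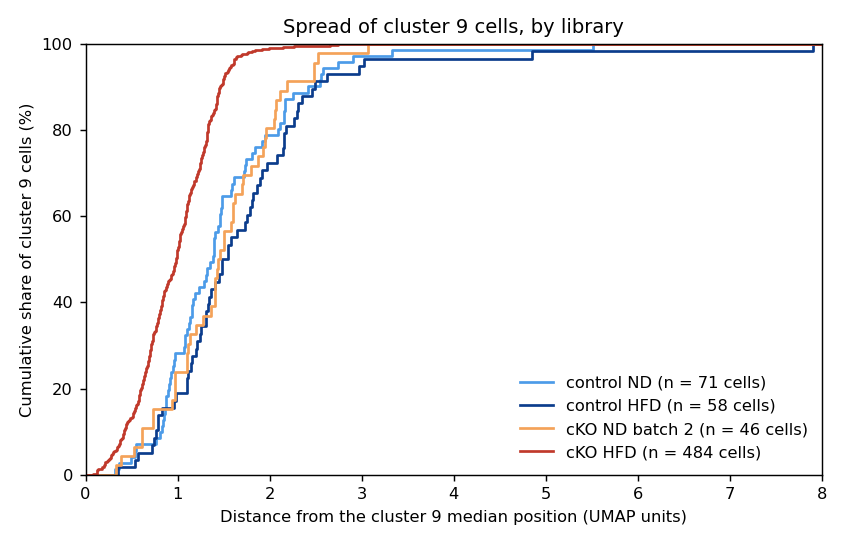
Cumulative percentage of cluster 9 cells (vertical axis) by distance from the cluster median position in UMAP units (horizontal axis), 1 line per library. The cKO high-fat diet line rises first and has 52.7% of its cells within 1 unit, where the other lines stand between 19.0 and 28.2%.

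The distant cells lay among other cell types. Of the 16 control high-fat diet cells beyond 2 units, 8 had alpha cells as their commonest neighbours outside the cluster, 5 delta, 1 PP, 1 other beta and 1 immune cells. That last cell sat 7.90 units from the cluster's median, at UMAP 2 10.7, the farthest of all 660. Of the 15 distant control normal-diet cells, 7 had mostly delta neighbours, 3 alpha, 3 PP and 2 other beta. Alpha cells were the commonest for 5 of the 9 distant cells of cKO normal diet batch 2 and for 4 of the 5 of cKO high-fat diet.

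Members from cKO high-fat diet had fewer cells of other clusters around them. Within 0.5 units of a cKO high-fat diet member lay a median of 26 cells from outside the cluster, against 33 around control normal-diet, 40.5 around control high-fat diet and 47.5 around cKO normal diet batch 2 members. Counting only cells of the control libraries, which are the same reference for every member, the medians were 21.5, 29, 32.5 and 38, so the order of the libraries was the same. That reference holds the own library of control members but not of cKO members. The plane was also cut into squares of side 0.5. The 5 fullest squares held 197 cluster 9 cells, which were 36.2% (31.9 to 40.6%) of the cKO high-fat diet cells, 16.9% (9.05 to 27.7%) of control normal-diet, 12.1% (4.99 to 23.3%) of control high-fat diet and 6.52% (1.37 to 17.9%) of cKO normal diet batch 2 cells. The squares were chosen by their number of members, most of which were cKO high-fat diet cells, so the choice itself favours that library. In the fullest square, between UMAP 1 −0.5 and 0 and UMAP 2 3.5 and 4, 51 of 58 cells were from cKO high-fat diet, 6 from control normal diet and 1 from control high-fat diet.

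Most cells of each genotype lay near a cell of the other, and each genotype also lay where the other did not. A cell was counted as inside the other genotype's area when a cell of that genotype lay within 0.243 units, the 95th percentile of the distance from a cluster 9 cell to its nearest fellow member. By this measure 95 of 129 control cells (73.6%, 65.2 to 81.0%) lay inside the cKO area, and 416 of 531 cKO cells (78.3%, 74.6 to 81.8%) lay inside the control area. A cell of their own genotype was in that reach for 69.8% of control and 96.2% of cKO cells, so control cells had a cKO cell in reach about as often as another control cell. Over squares of side 0.5, 80 held a member, 62 a control and 55 a cKO cell, and 37 held both, which is 59.7% of the control and 67.3% of the cKO squares. Those shared squares held 72.1% of control and 87.2% of cKO cells. With squares of side 0.25, 57 of 183 held both, which is 57.0% of the 100 control and 40.7% of the 140 cKO squares, so fewer than 1 in 2 occupied squares were shared at either size. The reach shares depended on the radius. The cKO cells were also 531 against 129 control cells, and the part of these numbers in the reach shares was not tested.

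Pairs of libraries on the same diet overlapped in part. On the high-fat diet 38 of 58 control cells (65.5%, 51.9 to 77.5%) had a cKO cell in reach, and 238 of 484 cKO cells (49.2%, 44.6 to 53.7%) had a control cell in reach. On the normal diet 30 of 71 control cells (42.3%) had a cell of cKO batch 2 in reach, and 26 of 46 (56.5%) the reverse. For scale, both control libraries, which differ in diet, reached each other for 46.5% of the normal-diet and 48.3% of the high-fat diet cells. Within the cKO, 69.6% of normal-diet batch 2 cells had a high-fat diet cell in reach, and 39.7% of high-fat diet cells the reverse. These shares have 46 to 484 cells of the other library to reach, and so do not rank the pairs.

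Neighbours inside the cluster showed how finely the genotypes were mixed. Among the 10 nearest cluster 9 cells, control cells had 32.1% control cells where random mixing of these cells would give 19.4%, a ratio of 1.65. The cKO cells had 87.0% cKO cells against 80.4%, a ratio of 1.08. The same ratio for a cell's own library was 1.60 in control normal diet, 2.09 in control high-fat diet, 2.26 in cKO normal diet batch 2 and 1.14 in cKO high-fat diet. Control cells were thus found beside other control cells more often than their number gives, and yet cKO high-fat diet cells made up 57.0% of their nearest members. Cells of cKO normal diet batch 2 had cKO neighbours less often than random mixing gives, 71.3% of their nearest members, a ratio of 0.887. In cKO high-fat diet the own-library share was 83.8% where random mixing would give 73.3%. For control high-fat diet these shares were 18.1% and 8.65%. A high expected share leaves a ratio little room to rise, so the ratios do not rank libraries or genotypes by how well they mix.

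Nearly all members bordered another hormone cell type in every library. At least 1 alpha, delta or PP cell was among the 30 nearest cells for 98.6% (92.4 to 99.96%) of control normal-diet cells, 98.3% (90.8 to 99.96%) of control high-fat diet cells, 46 of 46 cells of cKO normal diet batch 2 and 97.9% (96.2 to 99.005%) of cKO high-fat diet cells. The 1 cell of cKO normal diet batch 1 did too. The libraries differed in which type that was.

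Over the cells of all libraries, alpha cells, the glucagon cells, bordered control normal-diet members least often. With at least 3 alpha cells among 30, the shares were 16.9% in control normal diet, 41.4% in control high-fat diet, 52.2% in cKO normal diet batch 2 and 42.4% in cKO high-fat diet. Delta cells, the somatostatin cells, bordered control normal-diet members most often, at 45.1%, followed by control high-fat diet at 34.5%, cKO normal diet batch 2 at 21.7% and cKO high-fat diet at 13.2%. PP cells bordered 46.5% of control normal-diet members, 29 of 58 members of control high-fat diet, 41.3% of cKO normal diet batch 2 and 14.9% of cKO high-fat diet members. In this count the cKO high-fat diet interval lay below those of both control libraries for delta and PP cells, and for alpha cells it overlapped those of control high-fat diet and cKO normal diet batch 2. Members of the cluster itself take up neighbour places. Around cKO high-fat diet members 72.1% of the 30 neighbours were themselves in cluster 9, compared with 49.2% in control normal diet, 38.1% in control high-fat diet and 39.9% in cKO normal diet batch 2. With the cKO high-fat diet members left out of the neighbours of every cell, delta cells bordered 66.2% (54.0 to 77.0%) of control normal-diet, 39.7% (27.0 to 53.4%) of control high-fat diet, 30.4% (17.7 to 45.8%) of cKO normal diet batch 2 and 41.5% (37.1 to 46.1%) of cKO high-fat diet members. The low delta share of cKO high-fat diet was thus not seen in that count, while control normal diet was still the highest. PP cells then bordered 57.7% (45.4 to 69.4%), 62.1% (48.4 to 74.5%), 52.2% (36.9 to 67.1%) and 42.4% (37.9 to 46.9%), in the same order of libraries. The cKO high-fat diet value was still the lowest, and its interval lay below that of control high-fat diet but overlapped the others. Alpha cells then bordered 39.4%, 29 of 58 cells, 67.4% and 78.9% (75.02 to 82.5%), with cKO high-fat diet the highest. With control libraries' cells as the only neighbours the cKO high-fat diet values were 81.6% for alpha, 46.1% for delta and 44.6% for PP cells, and the control high-fat diet values 51.7%, 43.1% and 63.8%. With neighbours from other libraries only, delta cells bordered 18.3% of control normal-diet and 36.2% of control high-fat diet members. They bordered 23.9% of cKO normal diet batch 2 and 44.0% of cKO high-fat diet members. For alpha cells control normal diet had 16.9% in that count. The reference differs by library there, so these shares do not rank the libraries. For control normal-diet members it leaves out the 945 delta and 1925 alpha cells of their own library. Cluster 9 cells then made up 60.9% of their neighbours, against 33.2% around cKO high-fat diet members.

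**Figure D4:**
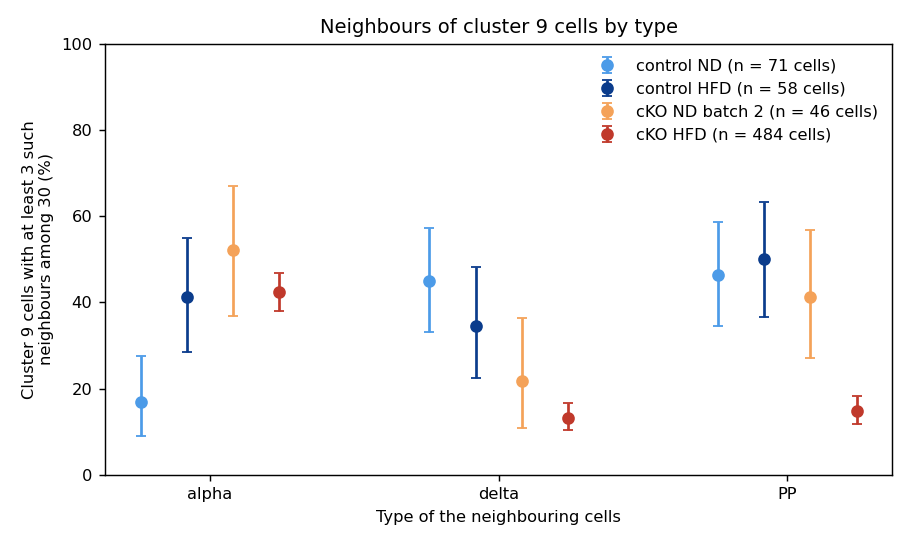
Percentage of cluster 9 cells with at least 3 alpha, delta or PP cells among their 30 nearest neighbours (vertical axis), by type of neighbour (horizontal axis) and library, with exact 95% binomial bars. Cells of all libraries and of cluster 9 itself count as neighbours, and values for cKO high-fat diet are 42.4% for alpha, 13.2% for delta and 14.9% for PP cells.

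Each member was also assigned to the alpha, delta or PP side by the nearest cell of these types, a measure that does not depend on how many other members are near. The alpha side held 21.1% (12.3 to 32.4%) of control normal-diet cells, 46.6% (33.3 to 60.1%) of control high-fat diet cells, 47.8% (32.9 to 63.1%) of cKO normal diet batch 2 cells and 52.7% (48.1 to 57.2%) of cKO high-fat diet cells. The delta side held 42.3%, 25.9%, 19.6% and 28.1%, and the PP side 36.6%, 27.6%, 32.6% and 19.2%, in the same order of libraries. Control normal diet was the library with the fewest alpha-side cells, and its interval did not overlap those of the other 3 larger libraries. With nearest cells taken from the control libraries only, its share was the same 21.1%, but its interval overlapped those of control high-fat diet (41.4%, 28.6 to 55.1%) and cKO normal diet batch 2 (45.7%, 30.9 to 61.0%). They also overlapped with nearest cells from control high-fat diet only. The delta and PP sides changed with that reference. The delta side then held 16.9% of control normal-diet, 15.5% of control high-fat diet, 8.70% of cKO normal diet batch 2 and 3.93% of cKO high-fat diet cells. The PP side held 60.6%, 29 of 58 cells, 23 of 46 cells and 57.4%, so its low share in cKO high-fat diet was not seen there. Control high-fat diet lay near the cKO libraries on the alpha side, and genotype and library cannot be told apart here.

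Of the 2 alpha clusters, cluster 2 gave most of the alpha border. It supplied 30.9% of all neighbours from outside cluster 9, and cluster 8 supplied 14.3%. By library, cluster 2 gave 6.65% of the outside neighbours in control normal diet, 31.3% in control high-fat diet, 35.3% in cKO normal diet batch 2 and 36.3% in cKO high-fat diet, whereas cluster 8 gave 11.7%, 6.22%, 14.7% and 17.0%. The low alpha border of control normal diet over the cells of all libraries was therefore a low border with cluster 2. The delta cluster gave 21.1% of outside neighbours, the PP cluster 19.6%, beta cluster 3 8.89% and beta cluster 1 4.73%.

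Neighbours were then limited to the cell's own library, which removes cells of other libraries from the count. At least 1 alpha, delta or PP cell was then among the 30 nearest for all 71 control normal-diet cells, 98.3% of control high-fat diet cells, all 46 cells of cKO normal diet batch 2 and 41.9% of cKO high-fat diet cells. For at least 3 alpha cells the shares were 52.1%, 29 of 58 cells, 73.9% and 5.58%, in the same order of libraries. Control normal diet was thus not the lowest for alpha cells in that count. The cKO high-fat diet library had 126 alpha, 128 delta and 33 PP cells beside its 484 members, and 163 members (33.7%) had only cluster 9 cells among their 30 nearest. Against the control libraries' cells alone, all 484 bordered one of these types. Neighbours outside the cluster were set against the cells each library had to offer. In cKO high-fat diet, other beta cells gave 55.6% of these neighbours against 80.5% of the cells on offer, a ratio of 0.691. The ratio for other beta cells was 0.0798 in control normal diet, 0.173 in control high-fat diet and 0.326 in cKO normal diet batch 2. PP cells were over-represented around members in all 4 libraries, with ratios of 5.94, 14.6, 3.49 and 7.35, and alpha cells with ratios of 1.11, 3.38, 1.60 and 4.93, in the order control normal diet, control high-fat diet, cKO normal diet batch 2 and cKO high-fat diet. Delta cells had ratios of 3.70 and 2.05 in the control libraries and 0.375 and 0.192 in the cKO libraries, so the members of the cKO libraries lay beside fewer delta cells of their own library than its makeup gives.

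Seen from the other side, PP cells met the cluster most often. By library, though, only in cKO high-fat diet did their interval overlap neither that of alpha nor that of delta cells. At least 1 cluster 9 cell was among the 30 nearest for 32.4% of PP cells in control normal diet, 48.3% in control high-fat diet, 42.4% in cKO normal diet batch 2 and 72.7% in cKO high-fat diet. The same held for 21.3%, 38.9%, 30.4% and 34.1% of alpha cells and for 31.7%, 9.91%, 12.8% and 7.81% of delta cells. Beta cells outside the cluster seldom did, at 0.461%, 0.983%, 5.26% and 4.79%.

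Since all members are labelled beta, leaving cluster 9 out could only lower the beta share of all cells, and it did in all 5 libraries. The drop was largest in the larger cKO libraries, which had the largest cluster 9 shares. Counted as beta, these cells gave beta shares of 55.1% in control normal diet, 72.6% in control high-fat diet, 77.5% in cKO normal diet batch 1, 22.8% in batch 2 and 84.3% in cKO high-fat diet. With cluster 9 left out of the beta cells and of all cells, the shares were 54.7% (53.6 to 55.8%), 72.4% (71.3 to 73.4%), 76.9% (60.7 to 88.9%), 19.3% (16.8 to 21.9%) and 80.5% (78.7 to 82.2%). If its cells were left out of the beta cells but kept among all cells, as when they are counted as some other type, the shares were 54.2%, 71.7%, 30 of 40 cells, 18.4% and 64.8% (62.9 to 66.7%).

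**Figure D5:**
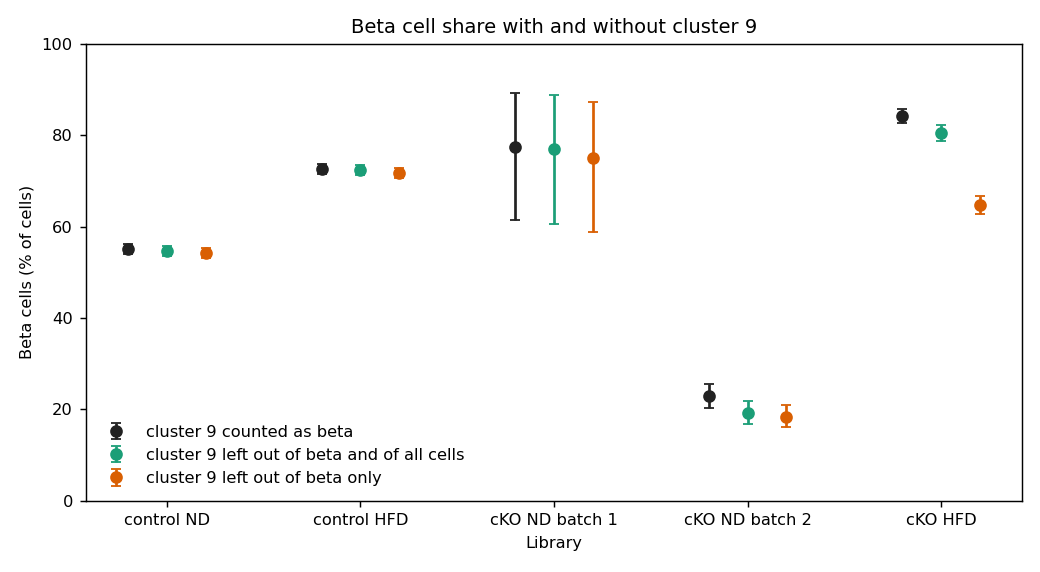
Beta cells as a percentage of cells (vertical axis) in each library, with cluster 9 counted as beta (black), left out of beta and of all cells (green), or left out of beta only (orange), with exact 95% binomial bars. In cKO high-fat diet the values are 84.3, 80.5 and 64.8%, and in control high-fat diet 72.6, 72.4 and 71.7%.

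On the high-fat diet the direction of the genotype difference depended on that choice. Without cluster 9 on either side, the cKO share stood above the control share by a log2 ratio of 0.15 (0.12 to 0.19), and with cluster 9 counted as beta by 0.22. With its cells kept among all cells but not as beta, the cKO share was below the control share, with a log2 ratio of −0.15 (−0.19 to −0.10). Each of these compares 1 library with 1 library. On the normal diet the mean of both cKO libraries without cluster 9 was 48.1 ± 40.8% (SD, n = 2) against 54.7% in control, a log2 ratio of −0.19 (−0.39 to 0.02). Batch 1 alone, the batch of the control library, gave 0.49, and batch 2 alone −1.51. The libraries of that group differed from each other by a log2 ratio of 2.00 (1.69 to 2.31), more than any of these genotype differences. Over all libraries the share without cluster 9 was 58.9 ± 34.4% in cKO (n = 3) and 63.5 ± 12.5% in control (n = 2), with p = 1 in a two-sided exact permutation test whose 10 arrangements allow no p below 0.1. The cKO group held 2 normal-diet libraries and 1 high-fat diet library, and the control group 1 of each. The pooled difference and its p therefore mix diet with genotype. Whether the libraries differ as mice do or as preparations do cannot be told apart, and that p measures only the spread between these libraries.

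The diet difference without cluster 9 was a log2 ratio of 0.40 (0.37 to 0.44) in control and 0.74 (0.54 to 0.95) in cKO, where batch 1 alone as the normal-diet library gave 0.065 (−0.18 to 0.32) and batch 2 alone 2.06. Per alpha cell, beta cells outside cluster 9 numbered 2.25 in control normal diet, 6.19 in control high-fat diet, 0.590 in cKO normal diet batch 2 and 12.8 in cKO high-fat diet. With cluster 9 included these numbers were 2.29, 6.26, 0.733 and 16.6.

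Among the beta cells that remain, the other clusters still differed between the high-fat diet libraries. Cluster 3, the beta cluster nearest to cluster 9, made up 54.6% of these in cKO and 17.9% in control, a log2 ratio of 1.61, and cluster 6 14.98% and 9.14% (0.71). Cluster 1 made up 6.90% and 35.9% (−2.38), and cluster 5 7.40% and 19.7% (−1.41). For cluster 7 the reading changed: with cluster 9 counted among beta cells its log2 ratio was −0.48 (−0.66 to −0.29), and without cluster 9 it was −0.11 (−0.30 to 0.07), which includes 0. On the normal diet, cKO batch 2 against control gave log2 ratios of 2.93 for cluster 3, −0.28 for cluster 1, −1.08 for cluster 5, −0.26 (−0.76 to 0.25) for cluster 6 and −1.85 for cluster 7. For clusters 1, 3 and 5 the sign was the one seen on the high-fat diet, and neither interval included 0. For clusters 6 and 7 the interval on 1 of the diets included 0, so their signs were not compared. This normal-diet comparison rests on batch 2, which is not the batch of the control library. In cKO normal diet batch 1, with 30 beta cells outside cluster 9, cluster 5 made up 70.0%, cluster 7 30.0% and clusters 1 and 3 0%. The control normal-diet shares were 14.5%, 7.59%, 56.4% and 3.94% for clusters 5, 7, 1 and 3. Clusters 3 and 5 thus went the other way in batch 1, and cluster 1 the same way.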

How the data were processed

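The authors deposited 4 tables that give each cell its cell type, cluster, library and position in the embedding. The UMAP positions are scores without a unit, as the authors deposited them. The submitters' processing notes name the software Cell Ranger 7.1.0 and the genome build GRCm39. How cells were filtered, doublets treated, libraries integrated, clusters formed and types named is not given in the sources used here. Sequencing depth is unknown here, so numbers of cells set the precision, and doublets were not called.

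Tables were joined by cell identifier and libraries matched to the labels by genotype, diet and number, with that number read as the batch. Shares have exact (Clopper-Pearson) 95% intervals, and log2 ratios of shares have 95% delta-method intervals. Neighbours (30, or 10 within the cluster) are Euclidean in the embedding. No p-value was made from cells. The members and lists were chosen with earlier results of these data known. No gene was named by a rule of values, since expression was not analysed. Scripts were tested on simulated data, and ran in Python 3.11.15 with numpy 2.4.6, scipy 1.17.1 and pandas 2.3.3. Alternatives were other neighbour numbers, references, radii, denominators and left-out libraries.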

Additional observations from a re-analysis of the deposited data

Results flagged for a closer look

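The cluster 9 share of beta cells was lower on the high-fat diet in control and higher in cKO, and the diet contrasts of the genotypes differed by 1.45 on the log2 scale. The cKO normal-diet value is the mean of 19.5% in batch 2 and 3.23% in batch 1, which held 31 beta cells. The intervals of both control libraries overlapped, as did those of cKO normal diet batch 2 and cKO high-fat diet. The share of members bordering any alpha, delta or PP cell moved in opposite directions with genotype on the normal and the high-fat diet, and these contrasts differed by −1.75 percentage points, with nearly all members bordering such a cell in each library. For the border with at least 1 delta cell among 30, the diet contrasts of control and cKO differed by 43.0 points, and by 12.9 points for at least 3 delta cells. For the border with at least 1 PP cell the genotype contrasts of the 2 diets differed by −33.1 points, and by −9.30 points for at least 3. Between these counts the PP share of cKO normal diet batch 1 went from 100% to 0%, through its 1 cell. The PP share of batch 2 went from 73.9% to 41.3% and that of cKO high-fat diet from 51.4% to 14.9%. The smaller second difference therefore depends on that 1 cell. For the delta side the diet contrasts differed by 34.7 points. The difference between the genotype contrasts is the same number by construction and adds no further observation. None of these differences was tested. Each uses the mean of both cKO normal-diet libraries, of which batch 1 holds 1 cluster 9 cell, so a border or side share there is 0 or 100%.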

How the results depend on the processing

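Of 119 alternatives, 64 were labelled as the same reading, 53 as a moved value and 2 as a reversed direction. The moved values include changes of sign in the normal-diet genotype log2 ratio of the beta share without cluster 9. That ratio was −0.19 (−0.39 to 0.02), with an interval that included 0. It was positive over endocrine cells and without cKO normal diet batch 2. For values that moved, the cause was not tested except where the setting itself changes the count. Control cells inside the cKO area were 63.6% at a 90th and 86.8% at a 99th percentile radius, and 61.2% by squares of side 0.25. For cKO cells inside the control area these were 50.1%, 98.5% and 50.1%, and 87.2% by squares of side 0.5. The control mixing ratio was 1.41 with 20 neighbours. Bordering shares in control normal diet were 100% with 50 neighbours, with its own library and with control libraries only, 88.7% with at least 3 such neighbours and 80.3% with other libraries only. In cKO normal diet batch 2 at least 3 such neighbours gave 91.3%. In cKO high-fat diet they were 92.1% with 15 neighbours, 84.3% with at least 3, 41.9% with its own library, and 100% with 50 neighbours, other libraries or control libraries.

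Leaving cluster 9 out of the beta cells only turned the high-fat diet genotype log2 ratio of the beta share to −0.15, and counting it as beta gave 0.22. Over endocrine cells the normal-diet ratio was 0.074, and without either cKO normal-diet library it ranged from −1.51 to 0.49. The normal-diet genotype ratio of the cluster 9 share, 2.82 over beta cells, was 2.12 over endocrine cells and 1.97 over all cells, and 1.00 to 3.60 without either library. The cKO diet ratio of the beta share was 0.47 with cluster 9 left out of beta only, 0.49 over endocrine cells, and 0.065 to 2.06 without either library. The pooled genotype difference turned to 0.940 points over endocrine cells (exact permutation p = 1). All alternatives to the pooled genotype difference, settings with other or control libraries only, with cKO high-fat diet members left out of the neighbours or with control high-fat diet as the reference, other centres, and cell counts by another radius or reference were chosen after seeing the data. No paired analysis was possible because the groups share fewer than 2 replicate numbers.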
